A study of Mus musculus with 4 samples.

Results

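Guanylate-binding proteins (GBPs) are large GTPases that cells make in response to interferons. The members described here are Gbp2, Gbp3, Gbp4, Gbp5, Gbp6, Gbp7, Gbp8 and Gbp9, 8 of the 32285 genes in the deposited tables. They were taken by gene symbol, with earlier results of these data known. The members were followed across brain cell classes in 4 single-cell RNA sequencing libraries of glia-enriched brain suspensions. All mice were male and carried human APOE by targeted replacement of the mouse gene, either APOE3 (APOE33) or APOE4 (APOE44), and their age is not given in the sources used here. Each genotype received either NaCl or an intraperitoneal injection of 5 mg/kg lipopolysaccharide (LPS), a component of the outer membrane of Gram-negative bacteria, and mice given LPS were killed 24 h later. Each of the 4 combinations of genotype and injection is 1 library made from 3 mice, with no map from cells to mice. There is therefore no replicate error for any value here, no test between groups was possible, and every interval printed is a 95% interval that covers counting error only.

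GBPs belong to the dynamin superfamily and are induced most strongly by interferon gamma and also by type I interferon. They assemble on the membranes of pathogen-containing vacuoles and on bacteria in the cytosol, bind LPS there, and bring it to the inflammatory caspase encoded by Casp4 in the mouse. In the brain, Gbp2 is widely used as a marker of astrocytes that react to systemic inflammation.

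The 8 members lie in 2 gene clusters of the mouse genome (GRCm38, the assembly behind mm10; GENCODE annotation). Gbp5 (chr3:142493978-142522344), Gbp7 (chr3:142530342-142550149), Gbp3 (chr3:142560026-142573209) and Gbp2 (chr3:142620602-142638008) are on the plus strand of chromosome 3. Gbp8 (chr5:105014150-105139540), Gbp9 (chr5:105077630-105139539), Gbp4 (chr5:105115767-105139586) and Gbp6 (chr5:105270702-105293698) are on the minus strand of chromosome 5, where the spans of Gbp4, Gbp8 and Gbp9 overlap and share 60 or 61 exonic bases. Gbp6 counts are uncertain. Of the 90-base windows in the last 500 bases of its transcript, where 3′ reads fall, 65.5% are also found in Gbp10 or Gm43302, and reads from those genes cannot be told apart from its own there. For the other 7 members no such window was shared with another gene.

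Promoter sequence from RefSeq (GRCm38.p6) covered the 4 members on chromosome 3. A pair of interferon-response motifs was searched in the 300 bases around each start: the core of the interferon-stimulated response element (ISRE: GAAA, any 2 bases, then GAAA, which reads TTTC, any 2 bases, TTTC on the other strand) and the gamma-activated site (GAS, TTCNNNGAA, the same on both strands). The stretches that hold the matches are shown because these members have an ISRE core in common there, 5′ to 3′ on the plus strand, with the matches in capitals.
Gbp5 (chr3:142496684-142496905): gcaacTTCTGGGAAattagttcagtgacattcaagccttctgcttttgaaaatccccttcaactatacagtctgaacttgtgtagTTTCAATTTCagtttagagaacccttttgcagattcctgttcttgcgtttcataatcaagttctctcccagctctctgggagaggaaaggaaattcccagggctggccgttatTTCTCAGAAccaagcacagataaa
Gbp7 (chr3:142530215-142530307): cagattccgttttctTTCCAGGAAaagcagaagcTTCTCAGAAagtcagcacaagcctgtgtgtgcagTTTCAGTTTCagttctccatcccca
Gbp3 (chr3:142559984-142560029): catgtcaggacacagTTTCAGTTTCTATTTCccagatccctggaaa
Gbp2 (chr3:142620589-142620628): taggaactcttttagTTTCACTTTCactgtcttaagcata
An ISRE core was present in the promoter of each of these 4 members, beginning 165 bases before the RefSeq start in Gbp5, 53 in Gbp7, 45 in Gbp3 and 59 in Gbp2. The RefSeq starts differ from the GENCODE spans given above, so that the Gbp5 stretch lies inside the GENCODE span of its gene and the Gbp2 stretch crosses the GENCODE start. In Gbp3, 2 ISRE cores overlap each other, and a second annotated Gbp3 start held neither motif. Gbp5 and Gbp7 each held 2 GAS matches as well, none overlapping an ISRE core. Of 32851 mouse promoters of the same length, 3.44% held the ISRE core, 8.30% the GAS motif and 0.454% both. These are letter matches in a fixed window and show no binding.

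Counts of unique molecular identifiers (UMIs) were summed over the cells of a class in a library and scaled to all UMIs of that class, as CPM. A UMI of this 3′ assay marks 1 transcript end, so CPM can be compared between genes without a length. Libraries held 14122 to 29361 barcodes and 73288965 to 114378032 UMIs, and clustering of the 12002 to 18182 cells kept per library gave 15 classes named from marker genes, written here as astrocyte-like and so on. In each library all 10 astrocyte, 12 microglia, 10 endothelial and 9 oligodendrocyte markers were at least 2-fold higher in their own class than in the other 3 of these classes. The clusters were named with these same markers, so this describes the classes and is no test of their names. The APOE4 LPS library stood apart before any Gbp gene was read. Its median barcode held 1292 UMIs against 3969 to 5640.5 in the others, 61.9% of its barcodes passed the cell filter against 92.6% to 93.7%, and 7038 of its 18182 cells fell in a cluster (cluster 14) that carries no class markers and has almost no cell from another library. The doublet caller found 0 doublets there and 1069 to 1404 in each other library, so doublets were removed from 3 libraries only. Every APOE4 LPS value below rests on this 1 library, and the APOE3 comparison is the LPS comparison that does not use it. Pairs of libraries shared 61 to 140 barcodes.

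In mice given NaCl the family was highest in endothelial-like cells. The 8 members together reached 528.6 CPM in APOE3 NaCl and 575 CPM in APOE4 NaCl in endothelial-like cells, against 106 and 93.4 CPM in microglia-like cells, 24.7 and 18.5 CPM in astrocyte-like cells, 10.7 and 3.41 CPM in neuron-like cells and 3.46 and 3.12 CPM in oligodendrocyte-like cells. This order of the 5 classes held in both NaCl libraries, but in APOE4 NaCl the last places rest on 15 neuron-like and 49 oligodendrocyte-like UMIs and are not told apart. It leaves out other classes. In APOE3 NaCl, Gbp7 alone was higher in border-associated macrophage-like cells (143 CPM) than the family sum in microglia-like cells. T and NK-like cells, few in number (56 and 44 cells), were at 429 and 205 CPM, and the unnamed cluster 18, which carries endothelial and pericyte markers, at 475 and 404 CPM. Endothelial-like cells carried all 8 members, led by Gbp7 (134 and 154 CPM) and Gbp5 (129.8 and 148 CPM). Of the Gbp4 UMIs in kept cells, 66.7% and 68.6% lay in endothelial-like cells in the NaCl libraries. Border-associated macrophage-like cells, which sit at the brain's surfaces and vessels, held mainly Gbp7 (143 and 90.6 CPM), ependymal-like cells, which line the ventricles, mainly Gbp2 (43.8 and 33.2 CPM), and fibroblast-like cells Gbp2 (38.7 and 30.7 CPM), Gbp6 (39.6 and 21.9 CPM) and Gbp7 (29.5 and 30.7 CPM).

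**Figure D1:**
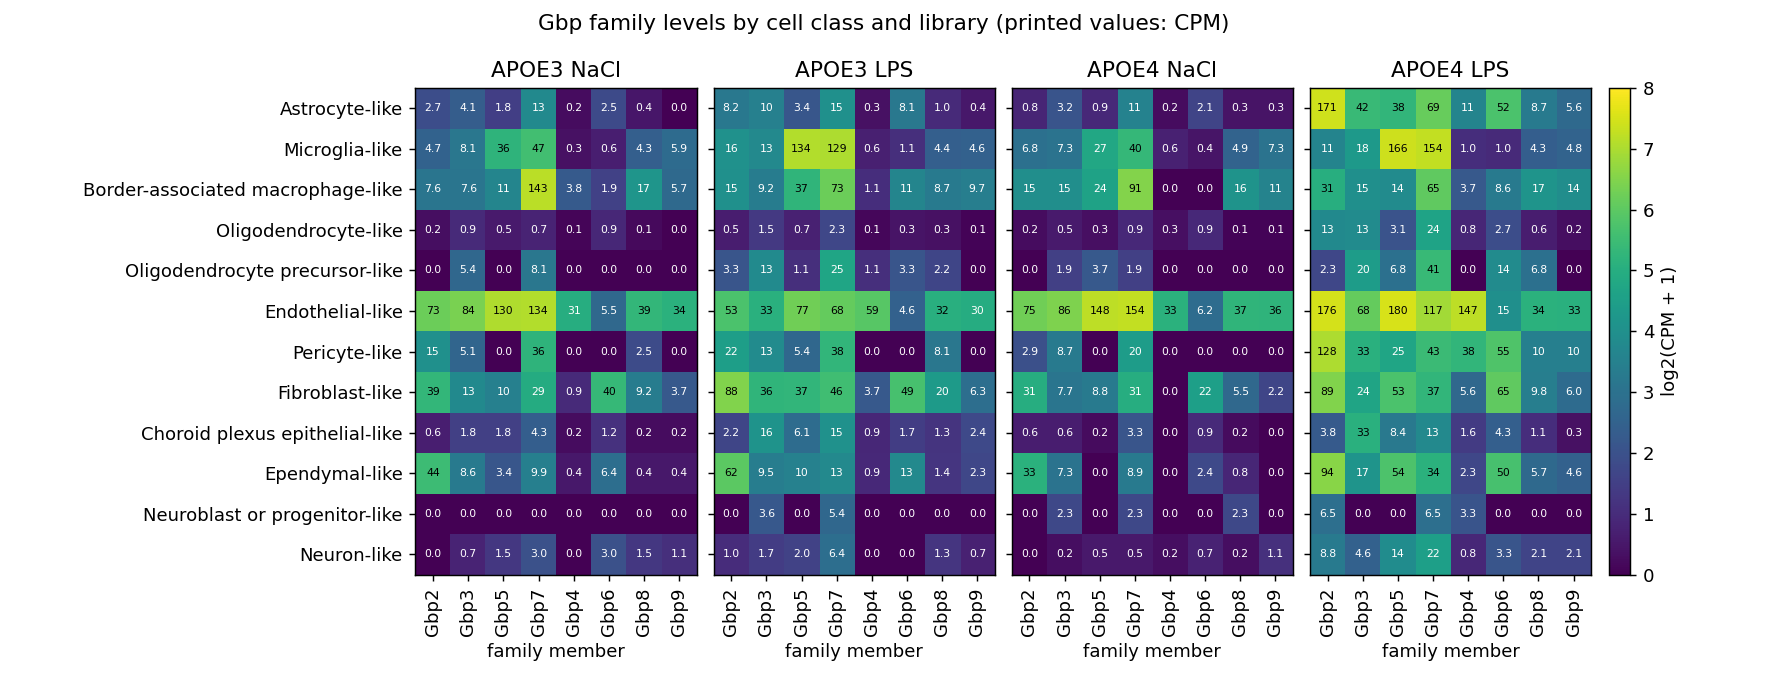
Level of each member (columns) in 12 marker-defined classes (rows) in each library, in CPM, with colour on a log2(CPM + 1) scale. Endothelial-like cells hold all members in every library, microglia-like cells hold Gbp5 and Gbp7, and the astrocyte-like row is bright only in APOE4 LPS, where Gbp2 reads 171 CPM.

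Astrocyte-like cells held little of the family in 3 libraries and much more in APOE4 LPS. Gbp2, which can be prenylated and so anchored to membranes, was at 2.74 CPM (42 UMIs) with NaCl and 8.22 CPM (112 UMIs) with LPS in APOE3, and at 0.758 CPM (11 UMIs) and 171 CPM (1757 UMIs) in APOE4. The APOE4 LPS library was thus far above the other 3, and APOE3 LPS was above both NaCl libraries. With LPS, Gbp2 was 3.00-fold higher in APOE3 (2.09 to 4.38) and 225-fold higher in APOE4 (126 to 452). The 11 UMIs of the APOE4 NaCl library set the width of the second interval.

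The other 7 members were also highest in APOE4 LPS, at lower levels than Gbp2. Gbp7, a member linked to oxidative killing of bacteria and to autophagy, was the most abundant in astrocyte-like cells outside APOE4 LPS, at 12.99, 15.1, 10.6 and 69.1 CPM (every list of 4 values gives APOE3 first, with NaCl and then with LPS, and then APOE4 likewise). Gbp6 was at 2.48, 8.15, 2.14 and 52.1 CPM, subject to the reads it shares with Gbp10. Gbp3, which belongs to the chromosome 3 cluster that is needed for the caspase response to cytosolic LPS, was at 4.11, 10.3, 3.24 and 42.0 CPM. APOE4 LPS was the highest library for each of these. Gbp5, a prenylated member tied to inflammasome activation, was at 1.83, 3.38, 0.896 and 37.6 CPM. The scarce members Gbp4, Gbp8 and Gbp9 had 0 to 13 UMIs in each of the first 3 libraries, and in APOE4 LPS Gbp4 reached 11.3 CPM, Gbp8 8.65 CPM and Gbp9 5.64 CPM.

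Genes with at least 10 UMIs in 1 of the 2 libraries were counted as measured, and those at least 2-fold apart as past the threshold. With LPS in APOE3 astrocyte-like cells, 4 of the 6 measured members were at least 2-fold higher (Gbp2, Gbp3, Gbp6 and Gbp8), where 4.61% of 16007 measured genes were. The ratio of Gbp8 rests on 6 and 13 UMIs and its interval reaches from 0.864 to 7.82. In APOE4, 8 of 8 members were at least 2-fold higher, where 8.59% of all measured genes were, with ratios from 6.51 (Gbp7) through 12.97 (Gbp3), 24.4 (Gbp6) and 42.0 (Gbp5) to 225 (Gbp2). The median over the measured members on the log2(CPM + 1) scale was 0.89 in APOE3 and 3.34 in APOE4, beside -0.06 and -0.02 over all measured genes. The family sum was 1.89-fold higher with LPS in APOE3 (1.66 to 2.16) and 21.4-fold higher in APOE4 (18.9 to 24.3).

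Between the 2 LPS libraries, 8 of 8 members were at least 2-fold higher in APOE4 astrocyte-like cells, where 5.96% of all genes were. The ratio was 38.4 for Gbp4, from 4 UMIs in APOE3 LPS, then 20.8 for Gbp2 (17.2 to 25.4), 12.8 for Gbp9, 11.1 for Gbp5, 9.07 for Gbp8, 6.39 for Gbp6, 4.57 for Gbp7 and 4.09 for Gbp3. The difference of the 2 log2 LPS ratios, APOE4 minus APOE3, was 6.23 for Gbp2 (5.24 to 7.23), 4.51 for Gbp5, 2.89 for Gbp6, 2.48 for Gbp7 and 2.38 for Gbp3 (1.77 to 2.99). These are differences between single libraries, and their variation between mice was not measured. Keeping doublets in all 4 libraries, which treats them alike, left Gbp2 at 6.61 in APOE4 on the log2(CPM + 1) scale, and brought Gbp5 and Gbp7 in APOE3 from 0.63 to 1.32 and from 0.20 to 0.89.

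**Figure D2:**
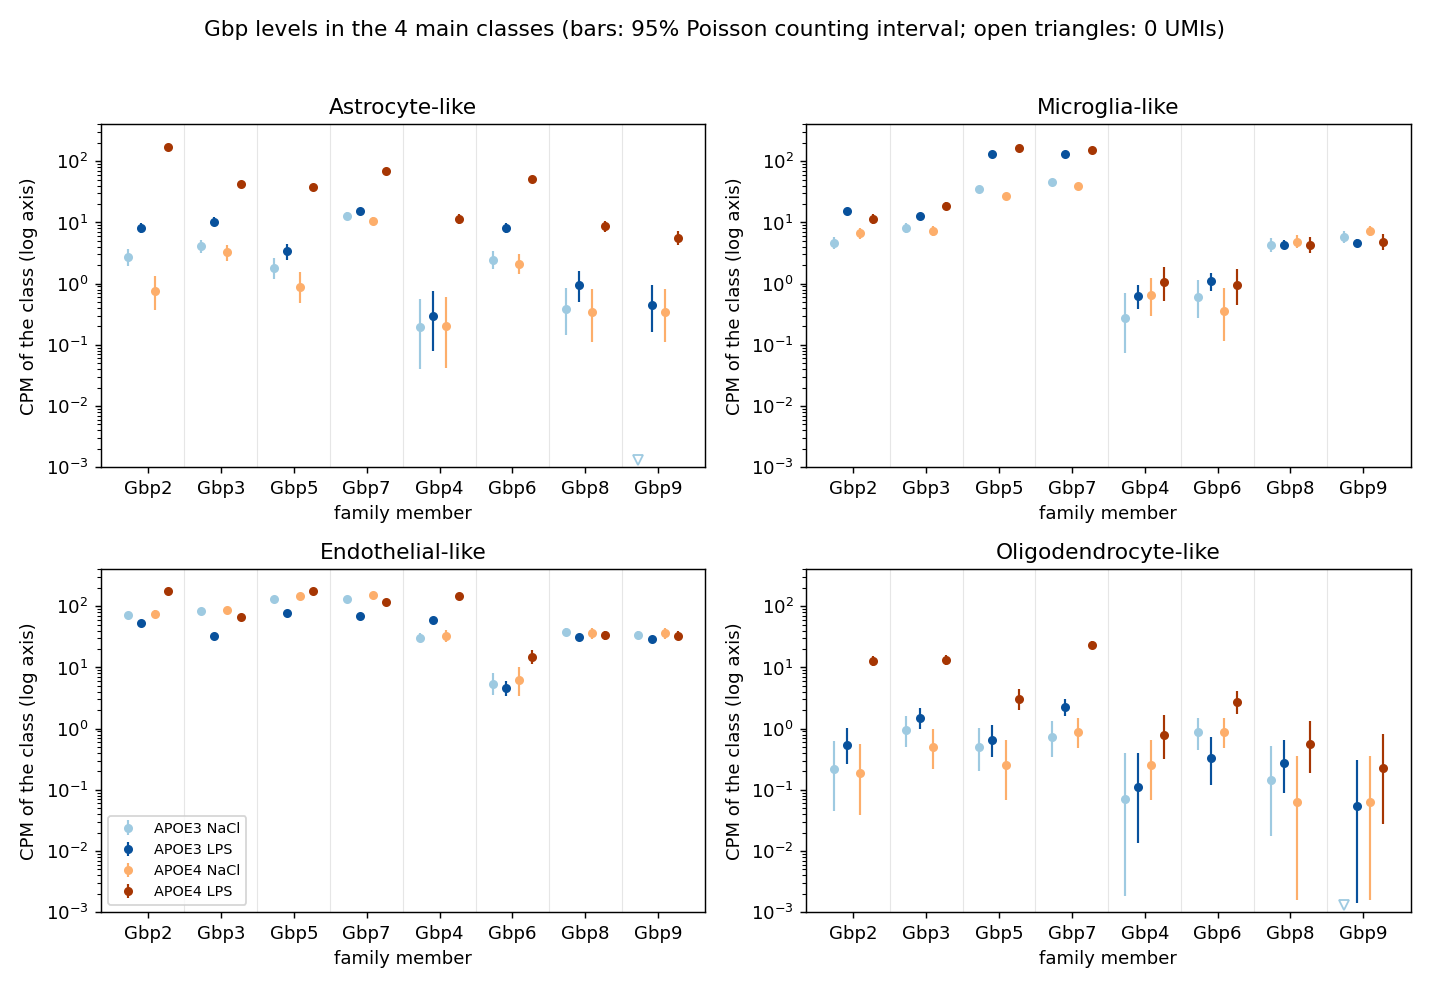
Level of each member in CPM (log axis) in astrocyte-like, microglia-like, endothelial-like and oligodendrocyte-like cells, 1 point per library with its 95% Poisson counting interval, and open triangles for 0 UMIs. In astrocyte-like cells the APOE4 LPS points stand clear above the other 3 libraries for all 8 members, while in microglia-like cells the 2 LPS libraries lie close together for Gbp5 and Gbp7.

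Values of other cells bear on the astrocyte-like levels in APOE4 LPS, since RNA that is free in a suspension is counted in every droplet. In that library Gbp2 was at 75.4 CPM in the barcodes that did not pass the cell filter, 63.8 CPM in erythrocyte-like cells and 60.1 CPM in cluster 14, which carries no class markers. It was at 12.8 CPM in oligodendrocyte-like cells, 11.3 in microglia-like cells, 8.79 in neuron-like cells, 3.79 in choroid plexus epithelial-like cells and 2.27 in oligodendrocyte precursor-like cells, against 171 in astrocyte-like cells. Gbp5 (47.0 CPM) and Gbp4 (14.0 CPM) were higher in the barcodes that did not pass than in astrocyte-like cells (37.6 and 11.3 CPM). Gbp7 was at 66.6 CPM in those barcodes, against 69.1 CPM in astrocyte-like cells. The others were lower in those barcodes: Gbp6 (16.5 against 52.1 CPM), Gbp3 (29.4 against 42.0), Gbp8 (7.49 against 8.65) and Gbp9 (4.28 against 5.64). For Gbp8 (5.76 to 9.59 CPM) and Gbp9 (3.00 to 5.93 CPM) the counting interval of those barcodes held the astrocyte-like level. Gbp2 made up 43.0% of the family's UMIs in astrocyte-like cells, 22.4% in oligodendrocyte-like, 15.3% in neuron-like and 3.14% in microglia-like cells. Oligodendrocyte markers in astrocyte-like cells summed to 1524 CPM in APOE4 LPS, or 7.22% of their level in their own class, against 178 to 354 CPM in the other libraries, with none of the 9 markers at 0 in any library. The 12 microglia markers summed to 361 CPM there, below the 414 CPM of APOE3 LPS. Without the cells that held UMIs of at least 3 markers of another main class (15.5% of astrocyte-like cells in APOE4 LPS, 4.48% to 9.68% in the others), the log2 LPS ratio of Gbp2 in APOE4 was 6.79 against 6.61 with them. Over the 7 other members the APOE4 ratio without these cells was higher than with them, for Gbp5 4.52 against 4.35 and for Gbp7 2.67 against 2.59. The part of free RNA in these levels, that of Gbp2 included, was not tested.

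Shares of cells were compared after thinning each cell to 1000 UMIs at random. At that depth, 10.7% of 2478 astrocyte-like cells in APOE4 LPS had a Gbp2 UMI (9.50% to 11.98%), against 0.236% and 0.700% in APOE3 with NaCl and with LPS, and 0.136% in APOE4 NaCl. Without thinning these shares were 21.5%, 0.661%, 2.34% and 0.3%, at median depths of 3333.5 to 3769 UMIs. Any of the 8 members was seen in 19.8% of thinned astrocyte-like cells in APOE4 LPS and in 83, 124 and 74 cells of the other 3 libraries, at most 3.77%. In other classes of the same library, any member was seen in 4.34% of oligodendrocyte-like cells (median 4888 UMIs before thinning) and 5.82% of neuron-like cells (median 5693 UMIs). The erythrocyte-like cells of APOE4 LPS (1391 cells, median 1401 UMIs) showed any member in 21.6%, with Gbp2 in 5.54%, Gbp7 in 8.12%, Gbp5 in 4.53% and Gbp4 in 1.87%. That class is not a clean blank, since its haemoglobin markers summed to 41146 CPM in this library and 376610 CPM in APOE3 NaCl. Against it, the astrocyte-like shares of Gbp2 (10.7%), Gbp6 (3.91% against 1.01%), Gbp3 (3.63% against 2.37%) and Gbp8 (0.726% against 0.503%) were higher, and those of Gbp7 (5.77%), Gbp5 (2.95%), Gbp4 (0.767%) and Gbp9 (0.605% against 0.647%) were not above it, and no expression is read from those shares. For Gbp3, Gbp8 and Gbp9 the counting intervals of the 2 classes overlapped.

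UMIs of several members were seen together in the same astrocyte-like cells of APOE4 LPS. Among the 265 thinned cells with a Gbp2 UMI in APOE4 LPS, 18.1% also had Gbp7, 15.5% Gbp6, 14.0% Gbp5 and 12.5% Gbp3, against 4.29%, 2.53%, 1.63% and 2.58% of the 2213 cells without one. Exactly 2 members were seen in 3.95% of cells, 3 in 1.69% and 4 or more in 0.525%. No doublets were removed from this library, and 15.5% of its astrocyte-like cells held UMIs of at least 3 markers of another main class. The shares of Gbp7 and Gbp5 were not above those of erythrocyte-like cells. The part of doublets and of free RNA in this joint detection was not tested. In APOE4 NaCl, 1 of 3666 cells showed 2 members and none showed more, which at 3 counts allows a share of up to 0.0818%. The UMIs were not spread evenly, since the 8.03% of cells with at least 2 UMIs of the family held 67.4% of its thinned UMIs.

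**Figure D3:**
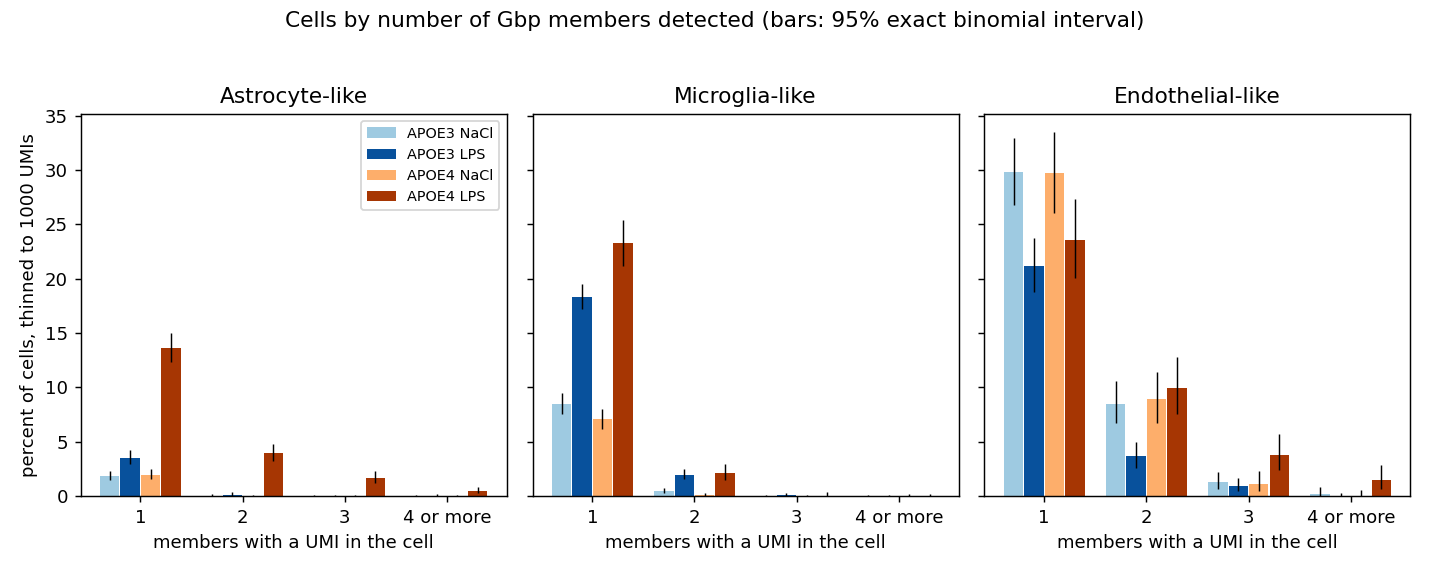
Percent of cells, thinned to 1000 UMIs, with a UMI of 1, 2, 3 or at least 4 members, by class and library, with 95% exact binomial intervals. Cells with several members are seen in astrocyte-like cells of APOE4 LPS (3.95% with exactly 2) and in endothelial-like cells of every library. They are also seen in microglia-like cells, with exactly 2 members in 85 of 4253 cells of APOE3 LPS and 33 of 1548 of APOE4 LPS. In the NaCl libraries these microglia-like counts are 15 of 3212 cells in APOE3 and 3 of 2927 in APOE4.

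Levels also differed among the astrocyte-like clusters. In APOE4 LPS, Gbp2 was at 288 CPM in cluster 1, whose leading genes include Lhx2 and Emx2os, at 79.2 CPM in cluster 8, led by Agt and Slc6a11, and at 90.2 CPM in cluster 24, of whose 196 cells 162 came from this library. In APOE3 LPS the first 2 were at 13.9 and 3.24 CPM. Cluster 1 was thus the higher of the 2 in both LPS libraries, and also in APOE3 NaCl (4.26 and 1.28 CPM) but not in APOE4 NaCl (0.719 and 0.812 CPM, from 6 and 5 UMIs). Gbp5 showed the same order in APOE4 LPS, at 70.5 CPM in cluster 1 and 12.7 CPM in cluster 8. The clusters were built without the Gbp genes and 15 other interferon-inducible genes, so these genes did not define them.

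In microglia-like cells the family was higher with LPS in both genotypes, and 2 members carried it. Gbp5 was at 35.5, 134, 26.6 and 165.5 CPM, 3.76-fold higher with LPS in APOE3 (3.43 to 4.12) and 6.21-fold in APOE4 (5.55 to 6.97). Gbp7 was at 46.7, 129, 39.6 and 154 CPM, 2.77-fold (2.55 to 3.00) and 3.88-fold higher (3.52 to 4.29). Both LPS libraries lay above both NaCl libraries for each gene, and Gbp5 made up 44.3% and 46.0% and Gbp7 42.8% and 42.7% of the family's UMIs in them. Gbp2 was at 4.66, 15.6, 6.75 and 11.3 CPM, with the larger ratio in APOE3 (3.34 against 1.68). Gbp3 was at 8.11, 12.6, 7.25 and 18.4 CPM. Gbp8 stayed between 4.28 and 4.88 CPM and Gbp9 between 4.63 and 7.33 CPM, with the 2 LPS libraries the lowest for Gbp9. Gbp4 and Gbp6 were at or under 1.10 CPM in all 4 libraries.

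With LPS, 4 of 8 members were at least 2-fold higher in APOE3 microglia-like cells (Gbp2, Gbp5, Gbp7 and Gbp4, the last from 4 and 21 UMIs), where 5.95% of all genes were. In APOE4, 4 of 8 were (Gbp3, Gbp5, Gbp7 and Gbp6, the last from 5 and 10 UMIs), where 7.75% of all genes were. The median over members was 0.48 and 0.59 on the log2(CPM + 1) scale, beside -0.15 and -0.10 over all genes. Between the LPS libraries 0 of 8 members were at least 2-fold higher in APOE4, where 4.13% of all genes were. The family sum was 302 and 360.1 CPM there, and the difference of its log2 LPS ratios was 0.44 (0.32 to 0.56), against 3.50 (3.25 to 3.76) in astrocyte-like cells. For Gbp2 the difference went the other way, between -1.53 and -0.46. Those of Gbp8 (-0.20), Gbp9 (-0.25) and Gbp4 (-0.51) were also negative, with intervals that reach both signs. Those of Gbp3, Gbp5, Gbp6 and Gbp7 were positive. On the log2(CPM + 1) scale this Gbp2 difference was -0.88, and between -1.01 and -0.32 under the alternative settings. Of the 94 Gbp2 UMIs in APOE4 NaCl microglia-like cells, 24 came from 53 cells of a single cluster (cluster 11). Scaling by the median gene in place of all UMIs moved the median of all genes by 0.22 in APOE3 microglia-like cells and raised the family's log2 ratio there from 1.499 to 1.72. The class leaves out the unnamed cluster 15, led by Marco, Ccl5 and Msr1, whose best-matching marker list was that of microglia. That cluster had 1356 cells of APOE4 LPS and 202 of APOE3 LPS. In APOE4 LPS it held 28.3% of the Gbp7 UMIs in kept cells, against 21.3% in microglia-like cells.

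The 2 leading members differed in where within the class they lay. Microglia-like cells of NaCl mice fell mainly in clusters 3 and 10 and those of LPS mice in clusters 4 and 11, the last led by the cytokine genes Tnf, Il1b and Il1a. Gbp5 was high in cluster 11 in every library, at 249, 189.5, 246 and 229 CPM from 125, 2547, 53 and 922 cells, and was between 7.20 and 35.9 CPM in the other 3 clusters in each library where they held at least 30 cells. Within cluster 11 its level was not higher with LPS in either genotype. Within cluster 4 it was at 9.32 and 24.2 CPM in APOE3 and 7.20 and 35.2 CPM in APOE4, and within cluster 3 in APOE4 at 18.6 and 35.9 CPM, with 1 to 8 UMIs in the smaller sets of cells. Within cluster 10 Gbp5 was lower with LPS in APOE3, at 28.0 and 13.1 CPM, and close in APOE4, at 21.7 and 25.9 CPM. The LPS values of cluster 10 rest on 4 and 14 UMIs. Gbp7 behaved otherwise. It was at 47.6, 119, 38.4 and 151 CPM in cluster 11 and at 40.4, 149, 14.4 and 156 CPM in cluster 4, so the LPS libraries were higher inside each. In cluster 10 it was at 40.4, 151, 36.7 and 162.5 CPM.

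**Figure D4:**
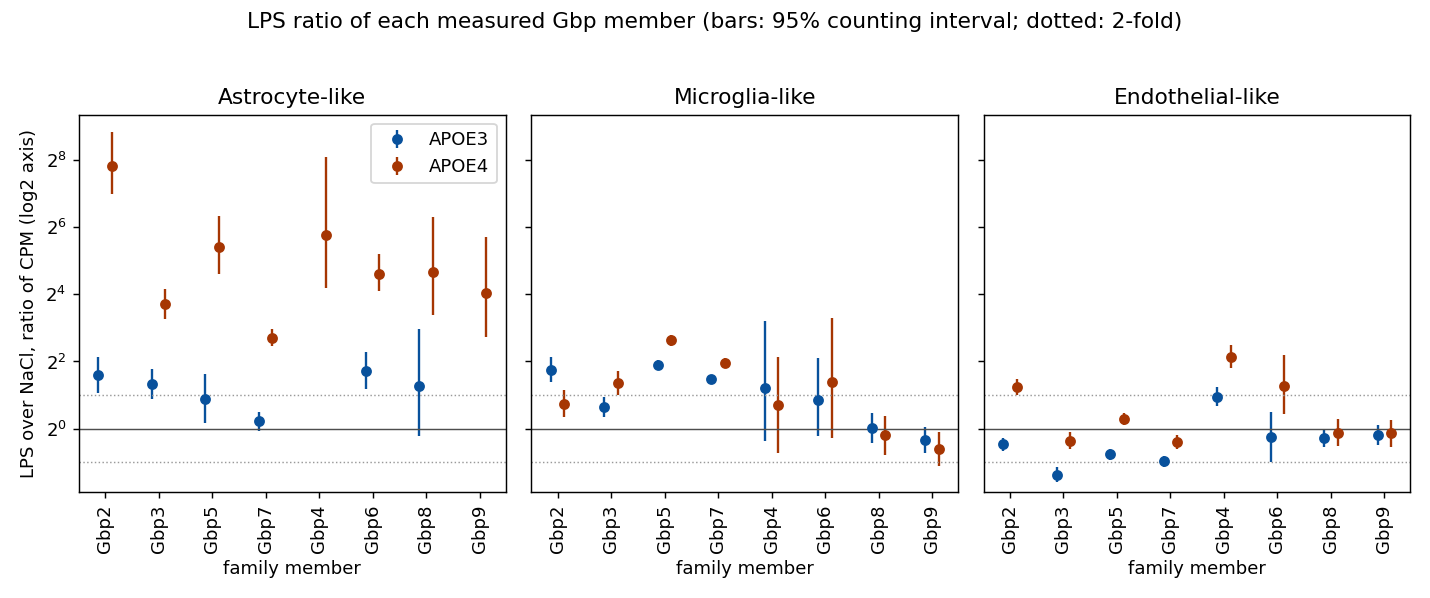
Ratio of CPM, LPS over NaCl, for each measured member in APOE3 and APOE4 (log2 axis), with 95% counting intervals and dotted lines at 2-fold. The intervals of the 2 genotypes do not overlap for the 6 members drawn for both in astrocyte-like cells, and the points lie closer together in microglia-like cells. In endothelial-like cells the points fall on opposite sides of 1 for Gbp2, Gbp5 and Gbp6. Of these, only Gbp2 and Gbp5 have intervals that exclude 1 in both genotypes.

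In endothelial-like cells, which form the vessel wall, LPS went with lower levels of most members in APOE3 and with higher levels of some in APOE4. Gbp2 was at 72.8, 52.7, 75.1 and 176 CPM, a ratio of 0.725 in APOE3 (0.631 to 0.834) and 2.35 in APOE4 (1.99 to 2.77). The 2 NaCl libraries were alike, APOE3 LPS was below them and APOE4 LPS above. Gbp5 was at 129.8, 76.8, 148 and 180.5 CPM, with ratios of 0.591 (0.531 to 0.659) and 1.22 (1.08 to 1.39). Gbp4, whose product has been tied to control of interferon signalling, was higher with LPS in both, at 30.6, 59.2, 33.2 and 147 CPM, with ratios of 1.94 (1.61 to 2.34) and 4.43 (3.51 to 5.66). Gbp7 was at 134, 68.3, 154 and 117 CPM and Gbp3 at 83.7, 32.5, 86.2 and 67.7 CPM, both lower with LPS in both genotypes as measured here. For Gbp3 in APOE4 the log2 ratio of -0.34 became -0.05 without cells that held markers of another class. Keeping doublets in all libraries brought the log2 ratio of Gbp7 in APOE4 from -0.39 to 0.03. Gbp6 was at 5.46, 4.59, 6.16 and 14.9 CPM. Gbp8 (31.9 to 38.7 CPM) and Gbp9 (29.7 to 36.1 CPM) differed little between the 4 libraries.

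Of the 8 members, 0 were at least 2-fold higher with LPS in APOE3 endothelial-like cells, where 11.5% of all genes were, and 1 was at least 2-fold lower (Gbp3, ratio 0.388), where 6.53% of all genes were. Gbp4 lay just under the threshold and passed it when cells with markers of another class were left out. In APOE4, 3 of 8 were at least 2-fold higher (Gbp2, Gbp4 and Gbp6), where 18.4% of all genes were. Between the LPS libraries 5 of 8 were at least 2-fold higher in APOE4 (Gbp2, Gbp3, Gbp5, Gbp4 and Gbp6, ratios 2.08 to 3.34), where 9.09% of all genes were. The median over members was -0.36 in APOE3 and 0.08 in APOE4, beside -0.02 and 0.04 over all genes. The family sum was at 528.6, 356, 575 and 769.9 CPM.

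Other cells' markers moved with these groups. The 12 microglia markers summed to 196, 1059, 193 and 1670 CPM in endothelial-like cells and the 10 astrocyte markers to 585, 927, 488 and 2046 CPM, with none of these at 0. Cells with at least 3 markers of another main class made up 47.4% and 51.8% of endothelial-like cells in the LPS libraries and 16.6% and 13.7% in the NaCl libraries. Without them the log2 LPS ratios of Gbp2 were -0.36 and 1.26, against -0.46 and 1.22 with them, and those of Gbp5 -0.91 and 0.58, against -0.75 and 0.29. Gbp7 in APOE4 went from -0.39 to -0.21. The classes were also made of different clusters, since NaCl cells lay in cluster 6 (818 and 605 cells) and LPS cells in cluster 2 (1061 and 510 cells). The 51 APOE3 NaCl cells of cluster 2 held Gbp2 at 8.60 CPM and Gbp5 at 30.1 CPM, below the APOE3 LPS cells of that cluster (52.5 and 76.6 CPM), from 4 and 14 UMIs. After thinning, any member was seen in 39.8%, 25.8%, 39.8% and 38.8% of endothelial-like cells, and before it in 73.2%, 73.1%, 70.8% and 73.2%.

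**Figure D5:**
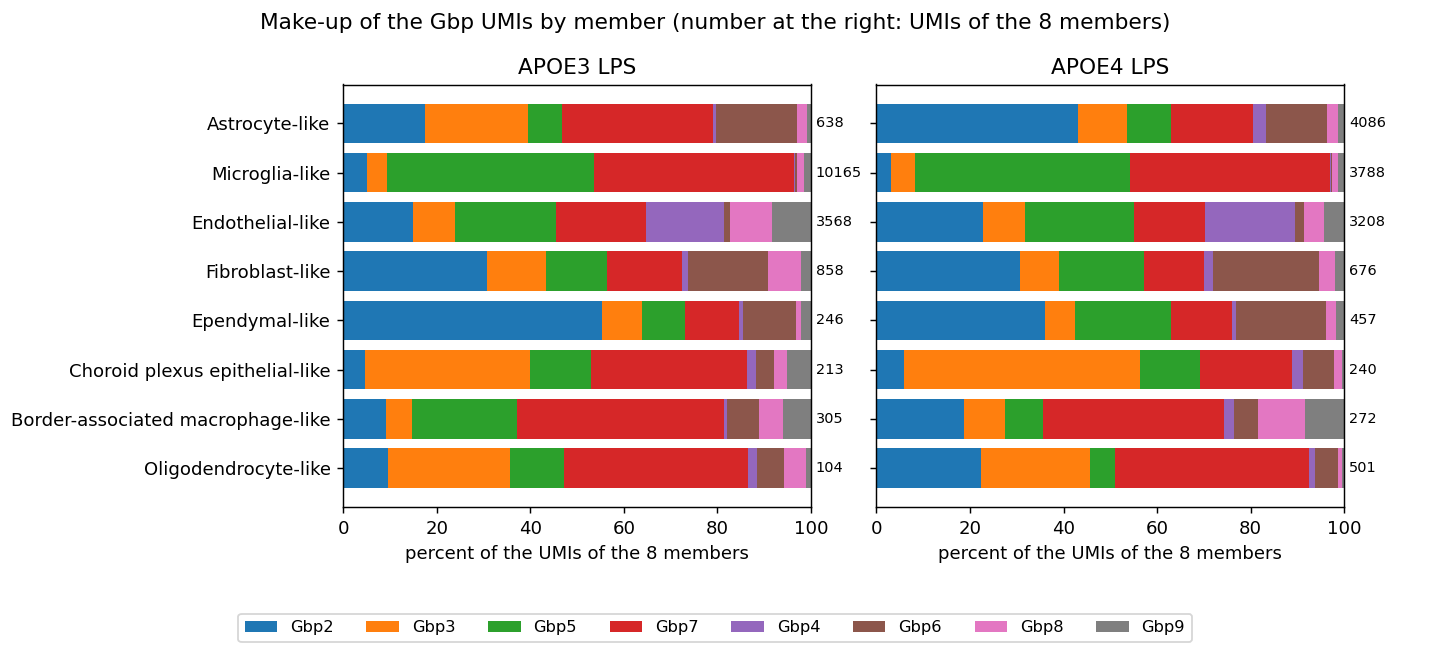
Share of each member among the UMIs of the 8 members in 8 classes of the 2 LPS libraries (bars, percent), with the number of UMIs at the right. Gbp2 takes 43.0% in APOE4 LPS astrocyte-like cells, Gbp5 and Gbp7 nearly the whole microglia-like bar in both libraries, and Gbp4 a visible share (19.1% in APOE4 LPS) among endothelial-like cells.

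Oligodendrocyte-like cells had the lowest family sum of the 4 main classes in every library, at 3.46, 5.72, 3.12 and 57.3 CPM. With LPS, 2 of 5 measured members were at least 2-fold higher in APOE3 (Gbp2 and Gbp7), where 7.87% of all genes were, and 5 of 5 in APOE4, where 10.6% were. Between the LPS libraries 5 of 5 were higher in APOE4, where 5.29% of all genes were. Gbp6 was lower in APOE3 LPS (ratio 0.381, from 12 and 6 UMIs), and the ratio of Gbp2 rests on 3 and 10 UMIs (0.654 to 14.4). Keeping doublets in all libraries made the APOE3 count 4 and moved the log2 ratio of the 8 members together from 0.59 to 1.75. The APOE4 LPS sum was also that of neuron-like cells in the same library (57.3 CPM), and the part of free RNA in it was not tested. Barcodes of APOE4 LPS that did not pass the cell filter held 261 CPM of the family.

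Smaller classes showed their own members. Choroid plexus epithelial-like cells, which make cerebrospinal fluid, held Gbp3 at 1.83, 16.3, 0.553 and 32.7 CPM, with both LPS libraries above both NaCl libraries. Ependymal-like cells held Gbp2 at 43.8, 61.8, 33.2 and 94.1 CPM and fibroblast-like cells at 38.7, 87.9, 30.7 and 88.5 CPM. Fibroblast-like cells were thus at nearly the same Gbp2 level in the 2 LPS libraries, unlike astrocyte-like cells. Depth differed, with medians of 11415 UMIs in APOE3 LPS and 3079 in APOE4 LPS for fibroblast-like cells, and 8132.5 and 2382.5 for ependymal-like cells. Gbp2 was at 75.4 CPM in the APOE4 LPS barcodes that did not pass the cell filter. The part of free RNA in the levels of these 2 classes was not tested. In pericyte-like cells Gbp2 was at 15.2, 21.5, 2.89 and 128 CPM, from 6, 8, 1 and 51 UMIs. Border-associated macrophage-like cells held Gbp7 at 143, 73.1, 90.6 and 64.7 CPM, lower with LPS in both genotypes, where microglia-like cells were higher. Over all barcodes of a library, with no classes at all, the family was at 93.4, 175, 60.6 and 288 CPM.

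Without LPS the genotypes were close in endothelial-like and microglia-like cells, with family ratios of APOE4 over APOE3 of 1.09 (1.02 to 1.16) and 0.881 (0.818 to 0.949). In astrocyte-like cells 2 of the 5 measured members were at least 2-fold lower in APOE4 NaCl, Gbp2 at a ratio of 0.276 (0.128 to 0.546, from 42 and 11 UMIs) and Gbp5 at 0.490 (0.233 to 0.977, from 28 and 13 UMIs), where 2.76% of all genes were. The low APOE4 NaCl value of Gbp2 enters its 225-fold LPS ratio.

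The pathway around the family was read from fixed lists, whose counts stand beside the share of all genes at least 2-fold higher with LPS in APOE3 and in APOE4: 4.61% and 8.59% in astrocyte-like, 5.95% and 7.75% in microglia-like, and 11.5% and 18.4% in endothelial-like cells. Of the immunity-related GTPases, which work with GBPs on vacuole membranes, 2 of 4 measured were at least 2-fold higher with LPS in APOE3 astrocyte-like cells and 6 of 6 in APOE4, where Igtp went from 4.68 to 83.9 CPM, Irgm1 from 16.3 to 122 CPM and Iigp1 from 0.413 to 115 CPM. In microglia-like cells 3 of 6 were in APOE3 and 0 of 6 in APOE4. Between the NaCl libraries, 2 of these 6 were at least 2-fold higher in APOE4 microglia-like cells, where 2.25% of all genes were. Between the LPS libraries 0 of 6 were, where 4.13% of all genes were. In endothelial-like cells 0 of 7 and 2 of 7 were at least 2-fold higher with LPS, the last near the share of all genes. Between the LPS libraries 4 of these 7 were at least 2-fold higher in APOE4 endothelial-like cells, where 9.09% of all genes were. The rise in APOE4 was not confined to astrocyte-like cells. In oligodendrocyte-like cells 2 of 3 measured were at least 2-fold higher with LPS in APOE3 and 5 of 5 in APOE4, where 7.87% and 10.6% of all genes were. Of the signal transducers and transcription factors that switch GBP genes on, 2 of 8 were at least 2-fold higher in APOE3 astrocyte-like cells (Irf8 and Irf9) and 5 of 8 in APOE4. Irf1, a transcription factor of the interferon response, was at 8.16, 7.56, 7.92 and 27.2 CPM in astrocyte-like cells, so only the APOE4 LPS library stood above the other 3. In microglia-like cells 1 of 8 was in each genotype (Stat2), and in endothelial-like cells 1 of 8 (Irf8), near or below the share of all genes. In oligodendrocyte-like cells 3 of 8 were in APOE3 and 5 of 8 in APOE4, beside 7.87% and 10.6% of all genes.

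None of the 4 measured interferon receptor genes was 2-fold higher with LPS in astrocyte-like cells, and in endothelial-like cells Ifnar1, a chain of the type I interferon receptor, was lower in both genotypes (232 to 108 CPM in APOE3 and 209 to 98.9 CPM in APOE4). Ifng, the interferon gamma gene, had at most 1 UMI in any library in astrocyte-like, microglia-like and endothelial-like cells. Ifnb1 reached 16 UMIs in microglia-like cells of APOE3 LPS, a class with 33697469 UMIs there and 10517827 in APOE4 LPS. Of the 5 measured interferon ligand and receptor genes in microglia-like cells, 1 was at least 2-fold higher with LPS in each genotype. The shares of all genes were 5.95% and 7.75%. Between the LPS libraries 1 of the 5 was at least 2-fold higher in APOE4, where 4.13% of all genes were. None of the 5 prenylation enzymes and none of the 9 ATG8-system genes, which place GBPs on membranes, was 2-fold higher in these 3 classes in either genotype. Of the inflammasome and pyroptosis genes that GBPs act on, 2 of 7 measured were at least 2-fold higher with LPS in APOE3 astrocyte-like cells. In APOE4 6 of 8 were, at low levels (Gsdmd, the pore-forming gasdermin, 0.482 to 1.75 CPM in APOE4). The shares of all genes were 4.61% and 8.59%. In microglia-like cells 2 of 9 were in each genotype, Nlrp3 (77.4 to 219 CPM in APOE3) and Il1b (109.8 to 838 CPM), beside 5.95% and 7.75% of all genes. In endothelial-like cells 4 of 9 were in each genotype, beside 11.5% and 18.4% of all genes. Of the other family members listed, Gbp10 had 17 UMIs in astrocyte-like cells of APOE4 LPS and 0 in APOE4 NaCl, Gbp2b had at most 2 UMIs in the 3 classes, and Gbp11 was not used here.

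Over 54 sums of a class in a library with at least 50 cells, the genes outside the family whose log2(CPM + 1) was most like that of the family sum, by Pearson's r among 18057 genes, were Igtp (0.920), Psmb8 (0.917), Irgm2 (0.915), H2-K1 (0.905) and H2-Q4 (0.9004). Psmb8 encodes a subunit of the immunoproteasome and H2-K1 a class I histocompatibility molecule. Between pairs of members r ran from 0.467 (Gbp7 and Gbp6) to 0.866 (Gbp5 and Gbp9). These sums share libraries and depth, so the values describe these libraries and carry no test.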

How the data were processed

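The authors deposited filtered matrices of whole-number UMI counts, 1 per library. The file headers name Cell Ranger 7.0.1, and the submitters' processing notes the mm10 build. A barcode was kept as a cell if it had 1000 UMIs or more from 500 genes or more, with mitochondrial transcripts no more than 20%. Scrublet doublets were removed, which it found in 3 of the 4 libraries. Cells were clustered with scanpy 1.11.5 (2000 variable genes, 30 components, 15 neighbours, Leiden resolution 1) without 23 interferon-inducible genes, and 29 clusters gave 15 named classes from marker lists. Counts were summed per class and library. Ratios carry exact conditional binomial intervals, levels exact Poisson and shares exact Clopper-Pearson intervals (scipy 1.17.1), all at 95% and for counting error only. A single library stands for each group, so nothing was tested between groups. The ratio intervals were tested on simulated data. The 8 members are all named, and like-patterned genes are the 5 with the highest r. The members and lists were chosen with earlier results of these data known. Leaving out mixed cells was chosen after seeing the data. Each library holds 73288965 to 114378032 UMIs.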

Additional observations from a re-analysis of the deposited data

Results flagged for a closer look

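In endothelial-like cells the LPS ratio of Gbp2 lay on opposite sides of 1 in the 2 genotypes, at 0.725 in APOE3 and 2.35 in APOE4, and that of Gbp5 likewise, at 0.591 and 1.22. With 1 library per group the difference was not tested.

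Barcodes of the APOE4 LPS library that did not pass the cell filter (11179 of 29361) held the 8 members at 260.7 CPM, against 84.6, 90.6 and 67.1 CPM in the barcodes that did not pass in the other libraries. These barcodes enter no comparison of classes.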

How the results depend on the processing

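No paired analysis was possible because each group is 1 library and no result comes from a test. The difference of the log2 LPS ratios of the 8 members together, APOE4 minus APOE3, kept its sign in all 4 main classes under every alternative run. In astrocyte-like cells it was 3.46 and became 2.93 with doublets kept in all libraries, 3.17 with classes from each cell's marker UMIs and 3.12 with a pseudocount of 10. In microglia-like cells 0.44 became 0.29 with doublets kept, 0.29 with marker UMIs and 0.31 with median-of-ratios scaling. In endothelial-like cells 0.99 became 1.12 with the highest doublet scores removed, 0.82 at resolution 2 and 1.15 without mixed cells. In oligodendrocyte-like cells 3.23 became 1.71 with doublets kept and 2.14 with the pseudocount of 10.

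The count of members at least 2-fold higher with LPS in APOE3 endothelial-like cells went from 0 to 1 with 2000 UMIs per cell, with marker UMIs, without mixed cells, at 1.5-fold and with median-of-ratios scaling. In oligodendrocyte-like cells the APOE3 count went from 2 to 4 with doublets kept, to 1 with the highest scores removed, with marker UMIs or without mixed cells, and to 0 with a minimum of 50 UMIs, and the APOE4 count from 5 to 8 with a minimum of 1 UMI and 3 with a minimum of 50.

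Of all genes, the number at least 2-fold higher with a minimum of 1 UMI was 1501 (APOE3) and 2358 (APOE4) in astrocyte-like, 1777 in APOE4 microglia-like and 1746 and 2751 in oligodendrocyte-like cells. With a minimum of 50 UMIs it was 315 and 673 in astrocyte-like, 556 and 591 in microglia-like, 972 and 1244 in endothelial-like and 607 and 693 in oligodendrocyte-like cells. At 1.5-fold it was 1396 and 2244, 1730 and 2104, 2572 in APOE3 endothelial-like, and 2125 and 2466. Without mixed cells it was 889 in APOE4 astrocyte-like and 1009 and 900 in endothelial-like cells. With the highest scores removed it was 1005 and 1267 in endothelial-like cells, and in APOE4 1222 with doublets kept and 1542 with inducible genes clustered. Marker UMIs gave 3377 in APOE4 microglia-like cells. The cause of these shifts was not tested. Gbp4, Gbp8 and Gbp9 had too few UMIs to be measured in oligodendrocyte-like cells.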
